A study of Brassica rapa with 18 samples.

Results

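The methylthioalkylmalate synthase (MAM) family of Brassica rapa was followed in seedling leaves after a spray of methyl jasmonate (MeJA) or a mock spray. Its 7 gene copies were taken by identifier from the 42186 features of the count table: Bra013007, Bra029355, Bra013009, Bra013011, Bra029356, Bra021947 and Bra018524. All plants were wild-type R-o-18, a trilocularis inbred, grown on plates in days of 16 h light and 8 h dark and treated at an age of 10 days. The 3 treated groups received 50 µM MeJA in 0.1% Tween-20, and the 3 control groups received water with the same Tween-20, so the detergent was common to all groups. Leaves were frozen 10 min, 24 h or 72 h after spraying, with 3 biological replicate libraries in each of the 6 groups. How many plants went into a library is not stated in the labels. Batch, in the labels, is the same as the time of harvest, so MeJA and mock were compared within a batch, whereas time and batch cannot be told apart.

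MAM enzymes carry out the committed condensation of methionine chain elongation. In the chloroplast they join acetyl-CoA to a keto acid made from methionine, and each further round adds a carbon to the side chain. The elongated amino acids are the precursors of the aliphatic glucosinolates, the sulphur-rich defence compounds of the cabbage family. In Arabidopsis different MAM enzymes accept different chain lengths, which makes the locus a major determinant of the glucosinolate profile. The enzymes are relatives of the isopropylmalate synthases of leucine synthesis. MeJA is the volatile ester of jasmonic acid, a hormone of wounding and defence against insects. The identifiers of the 7 copies are not paired with names or sequences in the sources used here, so no copy is given an individual enzyme name. Leaf marker genes and the other genes of the pathway could not be looked up for the same reason.

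Library totals ran from 13505607 to 17796115 counts. MeJA 10 min replicate 2 stood apart from its group: all 5 copies with a count in every library were highest there among the 3 MeJA libraries of that time. Mock 10 min replicates 2 and 3 were the most alike pair of replicate libraries, at 1.49 times the chi-square that sampling noise alone would give over genes. The least alike pair was MeJA 24 h replicates 1 and 2, at 26.9 times. MeJA 24 h replicate 1 was the highest of its group for Bra013007, Bra029355, Bra013009 and Bra013011, with 350.1 CPM, 294 CPM, 72.1 CPM and 148 counts. Results at 10 min are therefore given with and without single libraries. Nothing in the labels beyond the words biological replicate says how the plants of different replicates were kept apart, so p-values measure the spread between these libraries.

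Most of the family's reads in leaf came from a pair of copies. Bra013007 held 52320 and Bra029355 held 50705 of the 110760 counts of the family over the 18 libraries, together 93.0%. Bra013009 held 6.33%, Bra013011 held 0.536% and Bra029356 held 0.115%. These are shares of reads and not of transcripts, because gene lengths were not available and counts were not divided by length. Bra013007 ranged from 1062 to 5393 counts per library, Bra029355 from 1175 to 4411, Bra013009 from 111 to 1038, Bra013011 from 4 to 148 and Bra029356 from 2 to 13. How any reads shared between copies were assigned is not stated in the labels, and no sequences were available to check how alike the copies are. The split between copies is therefore less certain than their sum.

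The remaining copies were at or near the limit of detection. Bra018524 had no count in any of the 18 libraries. A count of 0 allows up to 3 counts, which is 0.0107 CPM (counts scaled to a common library size) over all libraries together and between 0.169 and 0.222 CPM in a single library. Bra021947 had 1 count in each of 3 libraries, a mock library of 10 min, a MeJA library of 24 h and a MeJA library of 72 h, and none in the other 15. Neither copy passed the filter on low counts, so neither was tested, and a MeJA response of these copies was not detectable at this depth. Bra029356 passed the filter only through its counts in MeJA at 24 h, a limit on any test of it at that time.

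Bra013007 was higher with MeJA than with mock in every library at all 3 times. At 10 min its level was 143.0, 137 and 144 CPM in mock replicates 1 to 3 and 183, 276 and 152 CPM in the MeJA replicates, where CPM is scaled by library size and composition (TMM). At 24 h it was 128, 144 and 129.7 CPM in mock and 350.1, 327 and 333 CPM with MeJA. At 72 h it was 79.96, 68.3 and 69.1 CPM in mock and 223, 267 and 213 CPM with MeJA. The groups did not overlap at any time, and the gap was narrowest at 10 min, between MeJA replicate 3 and mock replicate 3. The log2 fold change was 0.53 (SE 0.15) at 10 min, 1.33 (SE 0.16) at 24 h and 1.69 (SE 0.16) at 72 h, with edgeR quasi-likelihood adjusted p of 0.0478, 8.51e-06 and 1.52e-05. In linear terms it was 1.44-fold, 2.52-fold and 3.23-fold higher. In bulk leaf, more RNA per cell and more cells of an expressing type cannot be told apart.

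Bra029355 followed nearly the same course at nearly the same read numbers. At 10 min it stood at 144.5, 143 and 144.1 CPM in mock and at 194, 289 and 169 CPM with MeJA. At 24 h it stood at 139.5, 159 and 129.1 CPM in mock and at 294, 270.6 and 272 CPM with MeJA. At 72 h it stood at 89.8, 75.8 and 76.5 CPM in mock and at 219, 252 and 199 CPM with MeJA. Again no MeJA library fell within the mock range of its time. Its log2 fold change was 0.59 (SE 0.15), 0.97 (SE 0.15) and 1.47 (SE 0.15) at the 3 times, that is 1.51-fold, 1.96-fold and 2.77-fold (edgeR adjusted p = 0.0258, 0.000152 and 4.07e-05).

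Bra013009 had fewer reads and a larger response. Its level at 10 min was 9.62, 6.95 and 8.16 CPM in mock and 12.8, 24.8 and 13.7 CPM with MeJA. At 24 h it was 11.1, 13.7 and 8.72 CPM in mock and 72.1, 47.2 and 48.2 CPM with MeJA. At 72 h it was 8.61, 7.56 and 9.83 CPM in mock and 47.5, 59.3 and 34.98 CPM with MeJA. The lowest MeJA library lay above the highest mock library at each time, by a wide gap at 24 h and 72 h. Its log2 fold change was 1.06 (SE 0.27) at 10 min, 2.32 (SE 0.25) at 24 h and 2.45 (SE 0.26) at 72 h (edgeR adjusted p = 0.0249, 4.35e-06 and 4.11e-05). The rise was thus 2.08-fold at 10 min and 5.46-fold at 72 h.

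**Figure D1:**
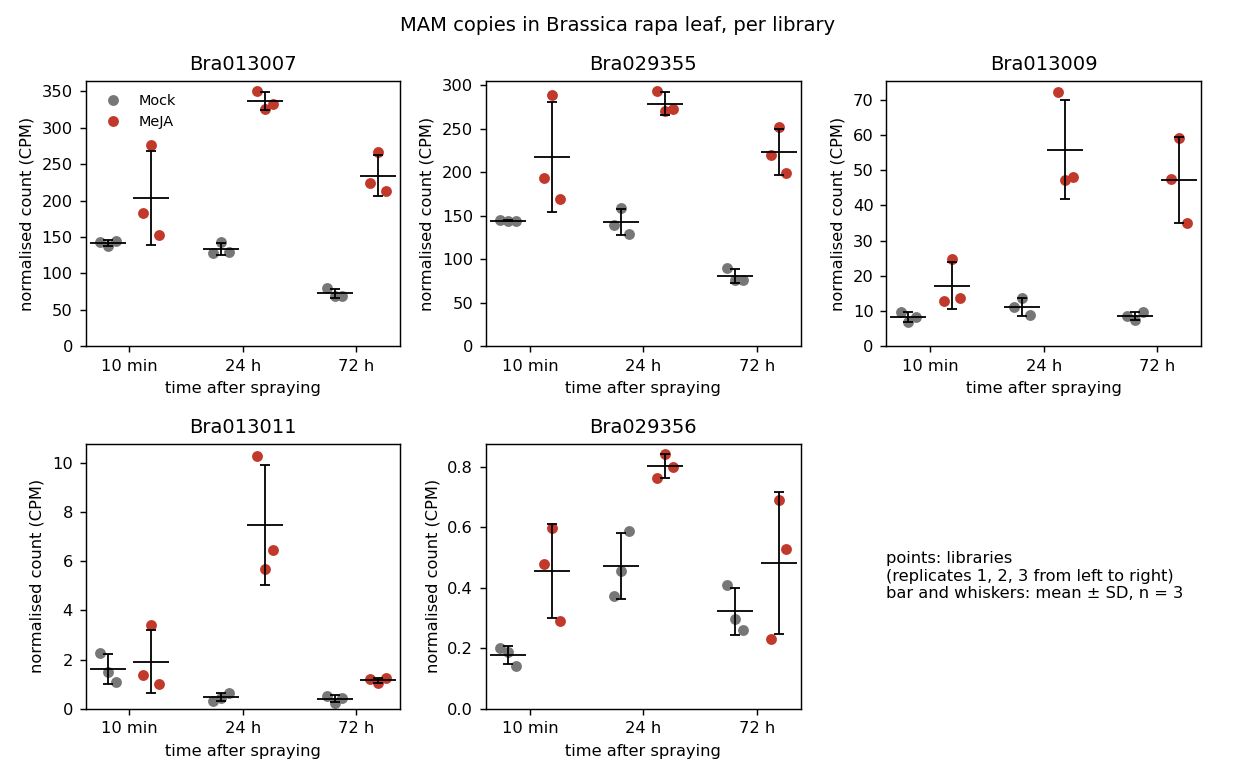
Level of each of the 5 copies with a count in every library, in CPM on a linear axis from 0 (each panel has its own scale), against the time after spraying; points are libraries, and bars with whiskers are the mean ± SD of 3 libraries. MeJA libraries of Bra013007, Bra029355 and Bra013009 lie above the mock libraries at every time, and Bra013011 stands out at 24 h, with MeJA libraries between 5.68 and 10.3 CPM.

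Bra013011 had its largest fitted response at 24 h. Its counts at 10 min were 34, 24 and 15 in mock and 20, 51 and 14 with MeJA, and the groups overlapped. At 24 h they were 5, 7 and 10 in mock and 148, 81 and 105 with MeJA, or 0.474 ± 0.173 CPM and 7.48 ± 2.46 CPM (SD, n = 3). At 72 h they were 9, 4 and 7 in mock and 21, 18 and 21 with MeJA, or 0.407 ± 0.151 and 1.16 ± 0.107 CPM (SD, n = 3). All MeJA libraries exceeded all mock libraries at 24 h and 72 h, but the separation at 72 h rests on few counts. The log2 fold change was 3.96 (SE 0.44; 15.6-fold, edgeR adjusted p = 4.41e-06) at 24 h. A larger log2 fold change was fitted at that time for 0.609% of the features tested. The values at 10 min and 72 h, 0.25 (SE 0.40; edgeR adjusted p = 0.765) and 1.49 (SE 0.51; edgeR adjusted p = 0.0694), did not pass the test. The 72 h value passed with DESeq2 (adjusted p = 0.0348) and in an edgeR fit of the 72 h libraries alone (adjusted p = 0.0257), and its adjusted p ran from 0.0257 to 0.224 over 12 alternatives.

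Bra029356 was barely detected, and no test of it passed. Its counts were 3, 3 and 2 in mock and 7, 9 and 4 with MeJA at 10 min, 6, 7 and 9 against 11, 12 and 13 at 24 h, and 7, 5 and 4 against 4, 12 and 9 at 72 h. The groups were apart at 10 min and 24 h by a few counts and overlapped at 72 h. Its log2 fold changes were 1.32 (SE 0.50), 0.76 (SE 0.39) and 0.56 (SE 0.43), with edgeR adjusted p of 0.121, 0.156 and 0.443.

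Counted over the family, 3 of the 5 copies tested were called higher with MeJA at 10 min, 4 at 24 h and 3 at 72 h, and none was called lower at any time. Over all 26593 features tested, 4.69% were called higher at 10 min, 15.4% at 24 h and 6.11% at 72 h, and 2.43%, 13.1% and 3.63% were called lower. By the plain criterion that all 3 MeJA libraries lie above all 3 mock libraries, the copies numbered 4, 5 and 4 of the 5 tested, where 14.6%, 19.4% and 16.4% of all features met it. The 24 h count is 4 of 4 without Bra029356, whose place among the copies tested came from its MeJA counts at that time. Bra013007, Bra029355 and Bra013009 were the copies called at every time. The other 2 of the 7 copies had too few reads to be tested.

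The calls at 10 min rested on single libraries, unlike those at 24 h and 72 h. Without MeJA 10 min replicate 2 no copy was called, and the log2 fold changes were 0.24 for Bra013007, 0.33 for Bra029355 and 0.69 for Bra013009. Without mock replicate 2 or without mock replicate 3 no copy was called either, although the fold changes of Bra013007 and Bra029355 stayed between 0.50 and 0.59, without mock replicate 1 Bra013009 alone was called, and without MeJA replicate 1 Bra013007 alone lost its call. Across all features, 411 in place of 1895 were called without MeJA 10 min replicate 2, and 358 without mock 10 min replicate 2. Over 12 alternatives the adjusted p of Bra013007 at 10 min ran from 0.00526 to 0.303, that of Bra029355 from 0.00416 to 0.163 and that of Bra013009 from 0.00238 to 0.185. At 24 h the calls of Bra013007, Bra029355, Bra013009 and Bra013011 held in each of 12 alternatives, with log2 fold changes of 1.21 to 1.39, 0.84 to 1.05, 2.10 to 2.49 and 3.67 to 4.26. At 72 h those of the first 3 of these also held in each, with 1.59 to 1.78, 1.37 to 1.56 and 2.25 to 2.64.

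**Figure D2:**
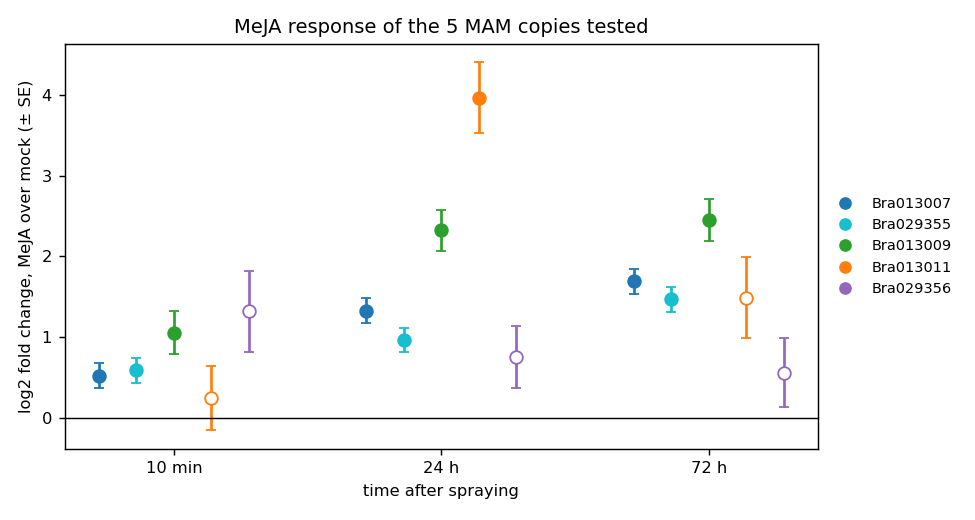
Log2 fold change of MeJA over mock (± SE, vertical axis) at the 3 times for the 5 copies tested; filled points passed the edgeR test at an adjusted p under 0.05 and open points did not. All fitted values lie above 0, Bra013009 lies above Bra013007 and Bra029355 at each time, and Bra013011 reaches 3.96 at 24 h.

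The summed family level does not depend on how the counted reads were split between copies. Any shared reads left uncounted would be missing from the sum as well. The sum was 295.6 ± 5.53 CPM in mock and 440.4 ± 135.7 CPM with MeJA at 10 min (SD, n = 3), 288 ± 25.6 and 679 ± 41.5 CPM at 24 h, and 163 ± 14.6 and 507 ± 66.7 CPM at 72 h. The ratio of these means was 1.49-fold, 2.36-fold and 3.12-fold, or 0.58, 1.24 and 1.64 on the log2 scale. Without MeJA replicate 2 the 10 min value was 0.30. Mean levels were lower at 72 h than at 24 h in both treatments. No test was made on the sum.

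The order of levels over the 6 groups was the same for Bra013007 and Bra029355. Mock at 72 h was lowest, followed by mock at 24 h and mock at 10 min, whose ranges overlapped, then by MeJA at 10 min and MeJA at 72 h, whose ranges also overlapped, and MeJA at 24 h was highest. For Bra013009 the 3 mock groups and MeJA at 10 min each overlapped their neighbour in order, and MeJA at 72 h and at 24 h lay above them and overlapped each other. For Bra013011 mock at 72 h and 24 h were lowest and overlapped, MeJA at 72 h, mock at 10 min and MeJA at 10 min formed an overlapping middle, and MeJA at 24 h stood above all. These orders cross harvest times and therefore batches.

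Without MeJA, the main copies were lower at the last harvest. Mock groups of different times also differ in batch and plant age, which cannot be told apart from time. From 24 h to 72 h in mock, Bra013007 fell by 0.88 (SE 0.16) and Bra029355 by 0.82 (SE 0.15) on the log2 scale (edgeR adjusted p = 0.00593 and 0.00762), where 1.98% of all features were called lower. Bra013009 and Bra013011 had values of -0.37 (SE 0.27) and -0.21 (SE 0.59), with edgeR adjusted p of 0.459 and 0.876. From 10 min to 24 h in mock, where 3.68% of features were called lower, Bra013011 was the copy called, at -1.77 on the log2 scale (SE 0.48; edgeR quasi-likelihood test, adjusted p = 0.0390). That call was lost without any 1 of 5 of the 6 libraries compared, and held without mock 10 min replicate 3. Bra013007 and Bra029355 stood at -0.08 (SE 0.15) and -0.01 (SE 0.15) over the same interval. Bra013009 and Bra029356 stood higher, at 0.44 (SE 0.27) and 1.36 (SE 0.49), but did not pass (edgeR adjusted p = 0.352 and 0.103). The value of Bra029356 rests on few counts.

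Whether the MeJA response itself differed between harvest times was tested by interaction contrasts, which share the mock and MeJA libraries of the times they have in common. These contrasts cross batches, so time and batch cannot be told apart in them. From 10 min to 24 h the log2 response of Bra013011 rose by 3.71 (SE 0.60; edgeR adjusted p = 0.00278), and 2.01% of all features were called in that direction. The level of Bra013011 in mock was 1.62 ± 0.615 CPM at 10 min and 0.474 ± 0.173 CPM at 24 h (SD, n = 3), so a lower mock level enters this difference beside the higher MeJA level. The corresponding values were 0.81 (SE 0.22) for Bra013007, 0.37 (SE 0.21) for Bra029355 and 1.27 (SE 0.37) for Bra013009, with edgeR adjusted p of 0.0532, 0.394 and 0.0696. Without MeJA 10 min replicate 2 all of these were called, 4 copies in place of 1, and without MeJA 24 h replicate 2 there were 3.

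Between 24 h and 72 h no copy passed the interaction test in edgeR, where 1.82% of all features did. In edgeR, Bra029355 and Bra013011 were the copies with an unadjusted p under 0.05, and DESeq2 called none, giving no adjusted p for Bra013011 or Bra029356. For Bra013011 the log2 response was lower at 72 h by -2.47 (SE 0.72; edgeR adjusted p = 0.0902), a difference called only with a fit restricted to the 4 groups compared (adjusted p = 0.0405; range 0.0405 to 0.221 over the alternatives that gave an adjusted p). From 10 min to 72 h Bra013007 was called, with a log2 difference in response of 1.17 (SE 0.22; edgeR adjusted p = 0.0331), where 0.263% of features were called in that direction. This call was lost without any 1 of 9 of the 12 libraries and held without MeJA 10 min replicate 2, MeJA 10 min replicate 3 or MeJA 72 h replicate 3. The fold changes at 24 h and 72 h are thus not shown to differ for any copy.

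Copies differed from each other in the size of the response. For the 4 copies with a mean of at least 1 CPM, the log2 ratio of each pair was compared between MeJA and mock within each time, over 6 pairs. Averaged over the 3 times, the log2 response of Bra013009 exceeded that of Bra013007 by 0.70 and that of Bra029355 by 0.87 (exact permutation test over the libraries within times, two-sided, p = 0.00025 and 0.0005, Benjamini-Hochberg adjusted over the pairs 0.0015 for each; the smallest p possible is 0.00025). The difference from Bra013007 was 0.48 at 10 min, 0.94 at 24 h and 0.67 at 72 h. Accordingly Bra013009 took 3.84% ± 0.54 of the family's counts in mock at 24 h and 8.15% ± 1.53 with MeJA (SD, n = 3), and 5.35% ± 0.82 and 9.23% ± 1.28 at 72 h.

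The pair of abundant copies also shifted against each other, by less. The count of Bra013007 divided by that of Bra029355 was 0.989, 0.957 and 1.001 in mock and 0.943, 0.954 and 0.903 with MeJA at 10 min. It was 0.915, 0.903 and 1.005 in mock and 1.19, 1.21 and 1.22 with MeJA at 24 h. It was 0.890, 0.901 and 0.904 in mock and 1.02, 1.06 and 1.07 with MeJA at 72 h. The ratio was thus higher with MeJA at 24 h and 72 h, with no overlap between the groups. At 10 min it was lower with MeJA, but the groups were barely apart, at 0.954 (MeJA replicate 2) against 0.957 (mock replicate 2). Single times were not tested, and the ratio depends on how any reads shared between the copies were assigned. The mean log2 shift over the times was 0.17 (exact permutation test as above, p = 0.00725, adjusted over the pairs 0.0145), made of -0.07, 0.36 and 0.22. Pairs with Bra013011 did not pass (adjusted p from 0.134 to 0.612 over the 3 pairs); its difference from each other copy had opposite signs at 24 h and at the other times.

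**Figure D3:**
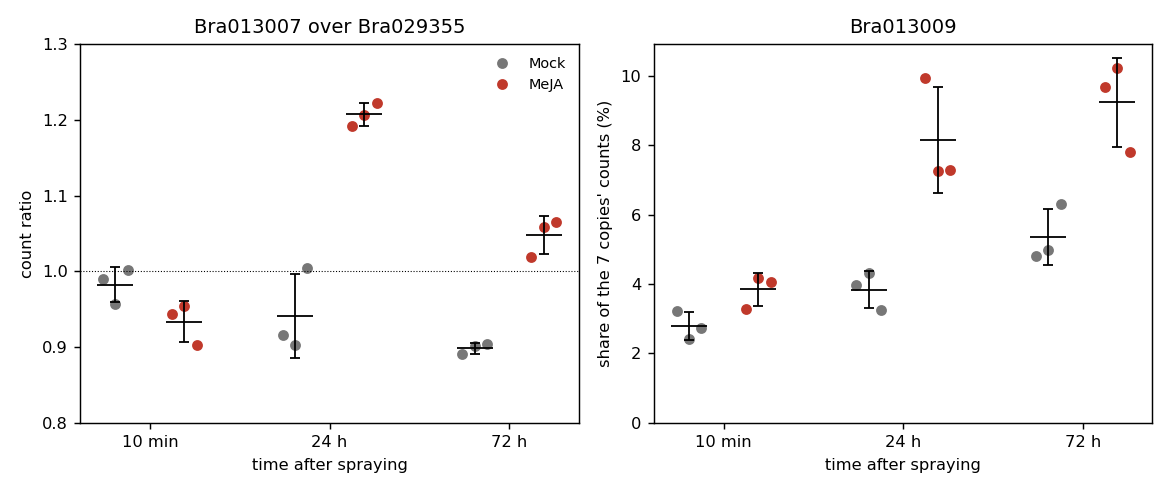
Left, count of Bra013007 divided by that of Bra029355 (axis from 0.8 to 1.3, dotted line at 1); right, share of the family's counts held by Bra013009, in percent from 0; points are libraries and bars with whiskers the mean ± SD of 3 libraries. The ratio lies between 1.19 and 1.22 in the MeJA libraries of 24 h, and the share of Bra013009 reaches 10.2% in a MeJA library of 72 h.

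Features with the profile most like that of Bra013007, the copy with the most counts over the 18 libraries together, were sought among 23990 features outside the family with a mean of at least 1 CPM. Likeness was the mean absolute difference between the log2 CPM profiles of the 6 group means, each centred on its own mean. Bra029355 had more counts than Bra013007 in the 3 mock groups and in MeJA at 10 min, so the choice of Bra013007 as the reference rests on MeJA at 24 h and 72 h. Bra022448 was closest at 0.0766 and Bra038965 next at 0.0864, and Bra029355 stood at 0.116, with 3 features outside the family closer than it. Bra013009 stood at 0.54, with 6664 such features closer. Bra022448 rose by 0.75 (SE 0.19), 1.496 (SE 0.20) and 1.70 (SE 0.20) on the log2 scale at the 3 times (edgeR adjusted p = 0.0268, 2.73e-05 and 0.000114). Bra038965 had values of 0.70 (SE 0.22), 1.14 (SE 0.22) and 1.51 (SE 0.23), of which the first did not pass (edgeR adjusted p = 0.0591, 0.00079 and 0.000721). These identifiers are not paired with names in the sources used here, and they were chosen for their likeness, so their values are a description.

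**Figure D4:**
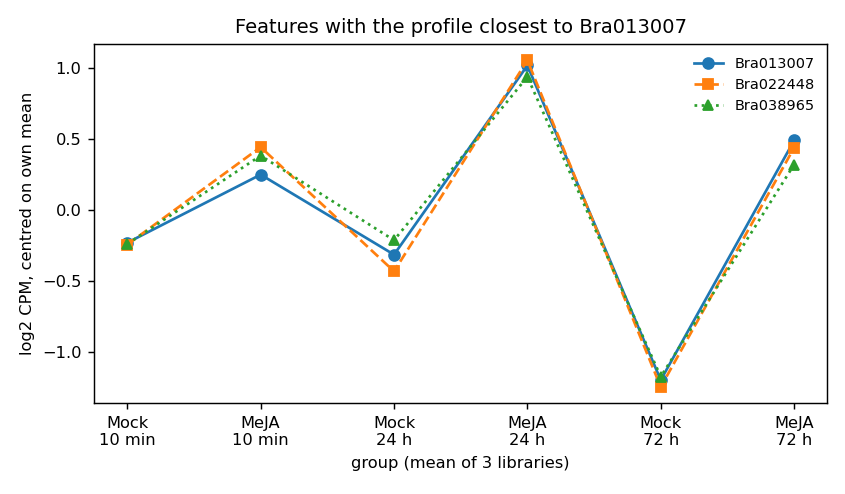
Mean log2 CPM of 3 libraries in each of the 6 groups, centred on each feature's own mean, for Bra013007 and the 2 features closest to it. All 3 lines are lowest in mock at 72 h and highest with MeJA at 24 h.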

How the data were processed

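The authors deposited unnormalised read counts for each gene, from stranded paired-end mRNA libraries per the labels' protocols. FastQC, TopHat2, HTSeq and edgeR appear, unversioned, in the submitters' processing notes. The genome build was not given in the sources used here, nor were the annotation and strand setting. None of the 7 identifiers matched the RefSeq gene table of CAAS_Brap_v3.01 (51589 genes), so planned pathway and marker lists could not be filled. The members and lists were chosen with earlier results of these data known.

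Counts were tested with edgeR 4.0.16 (R 4.3.3): filterByExpr on the 6 groups left 26593 features, TMM scaling, 1 quasi-likelihood fit of 6 group means over the 18 libraries, Benjamini-Hochberg over all features, threshold 0.05. SE was the log2 fold change over the square root of F. The pair comparison used log2(CPM + 0.5). The procedure was tested on simulated data. Named features outside the family were the 2 with the profile closest to the copy with the most counts over all libraries. Alternatives were RLE scaling, library totals, DESeq2 1.42.0, no filter, only the groups compared, a replicate block, and each library left out. No value column was unused. Floors cover counting error only.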

Additional observations from a re-analysis of the deposited data

Results flagged for a closer look

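A pair of results had a MeJA response that differed between harvest times, and so between batches, in the interaction test. For Bra013011 the log2 response at 24 h exceeded that at 10 min by 3.71, and this difference was called in each of 18 alternatives, with values from 3.37 to 4.41. For Bra013007 the log2 response at 72 h was the larger by 1.17 than at 10 min. Its mean level in mock was 142 CPM at 10 min and 72.5 CPM at 72 h, and with MeJA 204 and 234 CPM. Of 18 alternatives, 9 lost the call of Bra013007, each of them the removal of 1 library, with values from 1.00 to 1.45. Groups of 3 libraries were not tested for single outlying libraries.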

How the results depend on the processing

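The counts of copies called with MeJA at 24 h (4) and 72 h (3) and in mock from 24 h to 72 h (2) stayed within 1.5 times under every alternative run, as did the direction and call of every pair of copies compared. With single libraries left out, the count at 10 min (3) ran from 0 to 3, those of the change in response from 1 to 4 (24 h minus 10 min) and from 0 to 3 (72 h minus 10 min), and that of mock from 10 min to 24 h from 0 to 1. DESeq2 gave 3 and 3 for these changes in response in place of 1 and 1, and no filter gave 3 for 24 h minus 10 min. With only the groups compared in the fit, 1 copy was called at 10 min and 1 for 72 h minus 24 h in place of 0. The cause was not tested.

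Same-numbered MeJA and mock libraries deviated together (r over 0.1) in 2 of 9 pairs, so the numbers were not taken as pairs. With the replicate block 2 copies were called for 24 h minus 10 min and 0 in mock from 10 min to 24 h, in place of 1 and 1, and 2 at 10 min in place of 3, where Bra013007 had an adjusted p of 0.0568 (edgeR; 0.00526 to 0.303 over its 12 alternatives).

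Values near 0 changed sign: Bra029355 in mock from 10 min to 24 h was 0.0621 under library totals, and with libraries left out it ran from -0.102 to 0.0525, Bra013011 at 10 min from -0.44 to 0.59 and in mock from 24 h to 72 h from -0.44 to 0.0890, and for 72 h minus 24 h Bra029356 from -0.54 to 0.14 and Bra013009 from -0.0695 to 0.35. Library totals moved the median log2 fold change of all features at 24 h from -0.01 to -0.13. Over all alternatives the features called ranged from 358 to 2769 (1895) at 10 min, 4818 to 8683 (7588) at 24 h and 1023 to 3709 (2589) at 72 h. Depth limits Bra029356, Bra021947 and Bra018524.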
